A study of Mus musculus with 41 samples.

Results

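A microRNA hairpin is cut into a short duplex, and the names on this array mark one strand of that duplex with a star. The data described here are the levels of 112 star-strand microRNAs in mouse lungs after inhalation of nano-sized titanium dioxide (nanoTiO2), each read against the partner strand that bears the same name without the star. The members were every mouse row of the lung microRNA table whose name ends in a star, 112 of 567 mouse rows, and 2 further star rows were not used here. A partner row existed for 101 of them. The other 11, such as miR-24-1* and miR-24-2*, carry a number for one of several hairpins, or otherwise differ in name from the row of the other strand.

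The animals were C57BL/6 female mice (C57BL/6BomTac in the study's methods) aged 11 to 13 weeks that had been time-mated but had not conceived. Exposed mice inhaled nanoTiO2, a coated rutile powder used as an ultraviolet filter, at 40 mg/m3 according to the sample labels and at 42.4 mg/m3 ± 2.9 (SEM) according to the protocol, for 1 h a day on 11 days, and control mice inhaled filtered air. Lungs were taken 5 days after the last exposure, so these data hold a single time and a single dose. Each of the 13 one-colour arrays held RNA from lung sections of 1 mouse, 7 exposed and 6 control, on 3 slides that each carried both groups. Because the sections were whole tissue, fewer cells of a type and less RNA per cell could not be told apart.

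In the general scheme of microRNA biogenesis, the nuclear enzyme Drosha and its partner Dgcr8 release the hairpin, Exportin-5 carries it to the cytoplasm, and Dicer cuts it to the duplex. One strand, the guide, is then held by an Argonaute protein and directs the silencing of messenger RNAs, chiefly through its seed, and the other is mostly degraded. The star in older names was given to the strand thought to be rarer, and current names give the hairpin arm instead, 5p or 3p. Star strands can also enter Argonaute and act on their own targets, through a seed that differs from that of the partner.

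RefSeq held the mature sequence of 24 of the 27 star strands that could be tested, and both strands of 15 pairs (mouse genome GRCm38.p6). Of the 24 star strands, 17 lay on the 3p arm and 7 on the 5p arm, and 21 were 22 bases long. In the 15 pairs with both sequences, 11 star strands began with C and 2 with U, whereas 11 partners began with U and 1 with C. The sequences below are the pairs on which the comparison of both strands turned. They run 5′ to 3′, and the capitals mark the seed, bases 2 to 8. MiR-21* lay at chr11:86584082-86584103 on the minus strand, within the coordinates of the gene Vmp1, and miR-21 at chr11:86584120-86584141.
miR-21*: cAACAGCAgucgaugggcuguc
miR-21: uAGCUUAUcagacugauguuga
MiR-141* lay at chr6:124717959-124717980 on the minus strand and miR-141 at chr6:124717917-124717938.
miR-141*: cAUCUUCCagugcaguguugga
miR-141: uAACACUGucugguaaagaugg
MiR-10a* lay at chr11:96317227-96317248 on the plus strand, within Hoxb3, and miR-10a at chr11:96317186-96317208.
miR-10a*: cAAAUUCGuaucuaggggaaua
miR-10a: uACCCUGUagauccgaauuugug
MiR-7a* lay at chr13:58392800-58392821 on the minus strand, within Hnrnpk, and miR-7a at chr13:58392841-58392863.
miR-7a*: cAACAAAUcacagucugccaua
miR-7a: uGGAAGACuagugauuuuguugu
None of these pairs shared a seed between its strands.

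Among the 24 star strands with a sequence there were 20 different seeds, and 4 seeds were held by 2 star strands each. These are shown because star strands of one seed could be compared with each other. MiR-30a* and miR-30e* share UUUCAGU and differ at 1 of 22 positions, so a probe for one may also bind the other.
miR-30a*: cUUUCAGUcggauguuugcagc
miR-30e*: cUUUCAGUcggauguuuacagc
MiR-24-1* and miR-24-2*, the star strands of 2 hairpins that yield the same miR-24, share UGCCUAC. They differ at 5 of the 22 positions compared from the 5′ end without a gap. Their lengths are 23 and 22 bases, and the shift in register adds to that count. Binding of a probe for one to the other was not tested.
miR-24-1*: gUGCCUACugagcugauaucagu
miR-24-2*: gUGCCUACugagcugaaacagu
The star strands of miR-200a and miR-200b, which lie 772 bp apart on chromosome 4, share AUCUUAC.
miR-200a*: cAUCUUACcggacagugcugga
miR-200b*: cAUCUUACugggcagcauugga
Let-7b* and let-7f* share UAUACAA and differ at 2 positions.
let-7b*: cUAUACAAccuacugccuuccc
let-7f*: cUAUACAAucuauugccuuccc

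Star strands were present in fewer lungs than their partners. A strand was counted as present on an array when its signal was above the trimmed mean of that array's negative control spots by more than 3 trimmed SD. By this rule 13 star strands were present on all 13 arrays, 43 on 1 to 12 arrays and 56 on no array. Partner strands were more often present, 59 of 101 on all arrays and 26 on none. In the 101 pairs the star was present on fewer arrays than its partner in 64, on the same number in 26 and on more in 11, and in 26 pairs the star was on no array while the partner was on all 13.

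The number of star strands present differed widely between single lungs. Exposed lungs of mice 1, 3, 7, 9, 13, 17 and 18 held 13, 46, 21, 20, 24, 38 and 39, and control lungs of mice 6, 8, 10, 12, 20 and 23 held 28, 18, 29, 19, 25 and 21. The medians were 24 in exposed and 23 in control lungs, and both the lowest and the highest count were exposed lungs, so the groups overlapped. On mouse 1, with the fewest star strands, the threshold was a signal of 73.5, the highest of all, against 48.1 to 59.7 on the control arrays. On mouse 3, with the most, it was 60.9, so the count did not follow the threshold alone.

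**Figure D1:**
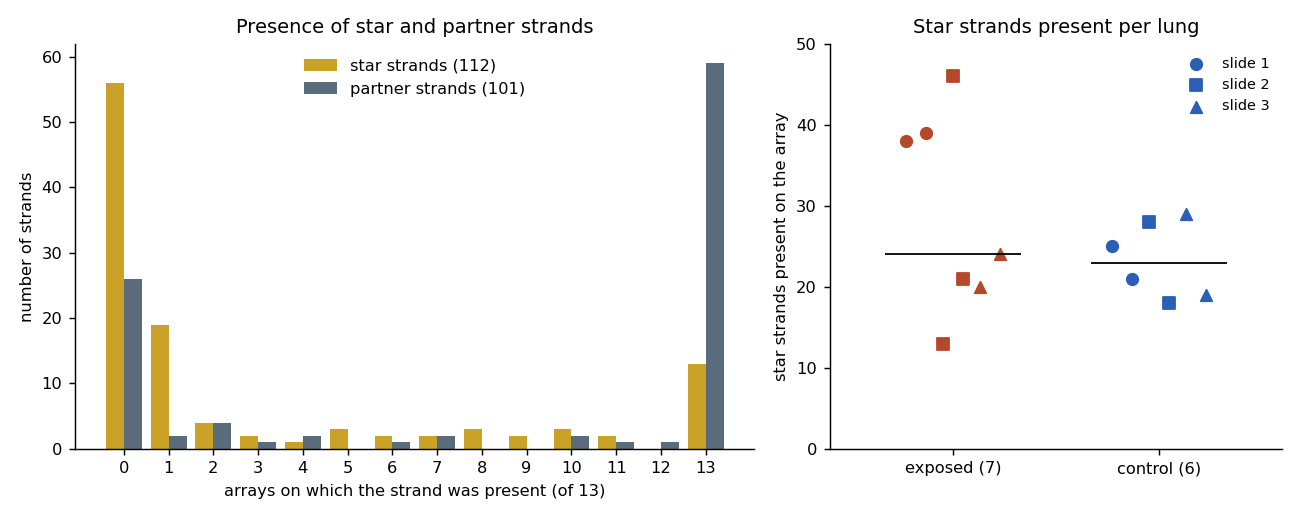
Left, number of star strands (112) and partner strands (101) against the number of arrays, of 13, on which each was present; 56 star strands were on no array and 59 partners on all 13. Right, number of star strands present on each array, with colour for the group, marker shape for the slide and a line at the group median (24 exposed, 23 control); exposed lungs ran from 13 to 46.

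Of the 112 star strands, 27 (24.1%) passed the presence rule in 50% or more of the lungs of one group and entered the fit, against 66 of 101 partners (65.3%) and 220 mouse microRNAs in all. The other 85 were not tested. Present on most arrays among these were miR-299*, miR-378* and miR-455*, each on 5 arrays (3 exposed, 2 control), and miR-467a* on 4 (3 exposed, 1 control). All values below are log2 signals after quantile normalization, in which the 251 mouse microRNAs present on no array had a median of 5.58. Of the 27 star strands tested, 14 had a mean below 6, so that most of their signal was at the level of absent microRNAs, which narrows any fold difference.

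No star strand differed between exposed and control lungs at an adjusted p under 0.05 (limma, Benjamini-Hochberg over 220 microRNAs), where 4 of all 220 (1.82%) did. The lowest adjusted p of a star strand was 0.223. At an unadjusted p under 0.05 there were 2, 1 higher and 1 lower, against 35 of 220 (15.9%). Star strands in the fit had fitted differences above 0 in 8 cases and below 0 in 19, with a median of −0.035, and all 220 microRNAs had 78 above 0 (35.5%) and a median of −0.036. When arrays were scaled to the 75th percentile of probes detected on all arrays the median of star strands was −0.35 and that of all microRNAs −0.23, and when scaled to the 75th percentile of all mouse probes these medians were 0.0084 and 0.13, so the sign of small differences depended on the scaling. The fitted differences ran from −0.11 to 0.19, and every 95% confidence interval lay between −0.27 and 0.41. With 7 and 6 lungs and background kept in the signal, these intervals bound the differences in measured signal and not those in RNA.

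**Figure D2:**
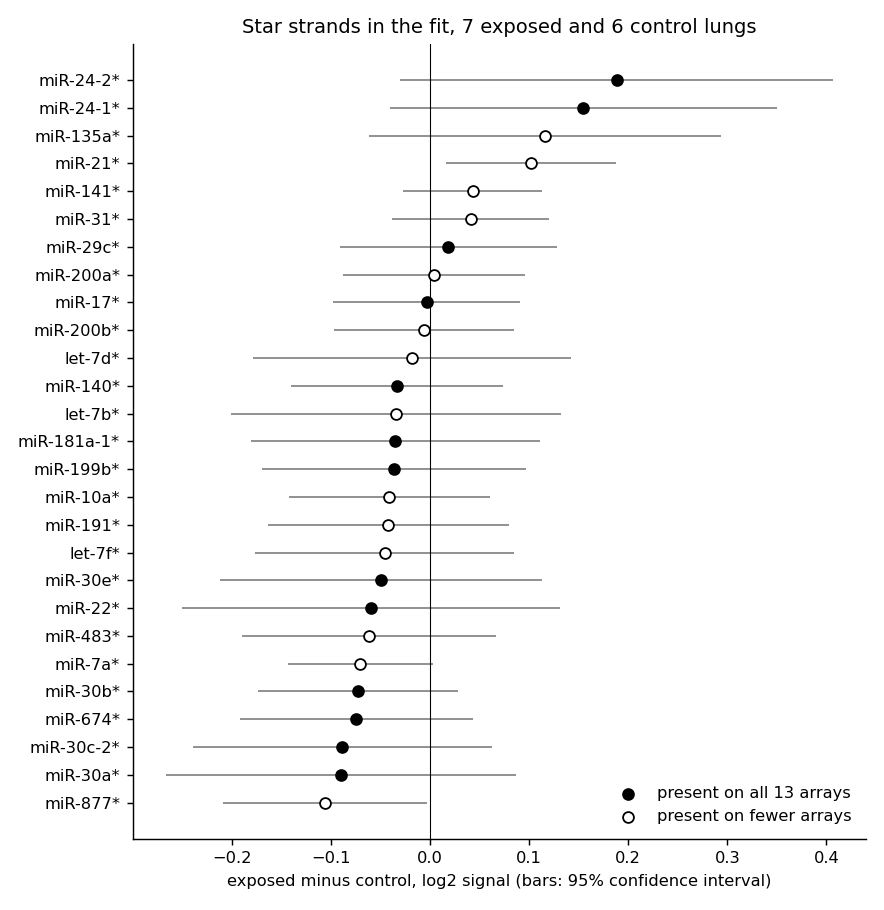
Exposed minus control difference in log2 signal (horizontal axis) of the 27 star strands in the fit, with 95% confidence intervals as bars; filled points were present on all 13 arrays and open points on fewer. Differences ran from −0.11 (miR-877*) to 0.19 (miR-24-2*), and none passed the threshold.

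The star strands of miR-24 had the highest fitted differences. MiR-24 is a widely expressed microRNA made from 2 clusters, one on chromosome 13 and one on chromosome 8. MiR-24-2* had a lowest, median and highest level of 7.54, 7.66 and 8.06 in exposed lungs and of 7.40, 7.53 and 7.76 in control lungs. It was highest in 3 exposed lungs that lay above every control, and the groups overlapped otherwise. The difference was 0.19 (95% CI −0.03 to 0.41, adjusted p = 0.336 in limma), and within slides 1, 2 and 3 it was 0.13, 0.08 and 0.37. MiR-24-1* measured 6.29, 6.63 and 6.77 in exposed and 6.26, 6.42 and 6.56 in control lungs, with 4 exposed lungs above every control (difference 0.15, adjusted p = 0.364 in limma). Their common other strand, miR-24, had a fitted difference of the opposite sign, −0.16 (95% CI −0.32 to −0.0091, adjusted p = 0.272 in limma). No pair test was set up for it, since its row does not bear the same name.

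The star strands of the miR-30 family, of which the guides are abundant in lung epithelium and many other tissues, all had fitted differences below 0. So did 19 of all 27 star strands in the fit and 64.5% of the 220 microRNAs. MiR-30a* was one of the brightest star strands, at 8.24, 8.49 and 8.64 in exposed and 8.36, 8.51 and 8.77 in control lungs. The overlap of the groups was large for this strand, and the difference was −0.09 ± 0.08 (SE). MiR-30e*, of the same seed, differed by −0.05 (SE 0.08), miR-30b* by −0.07 (SE 0.05) and miR-30c-2* by −0.09 (SE 0.07), with adjusted p-values in limma from 0.428 to 0.753. Their partners miR-30a, miR-30e and miR-30b differed by 0.0044, 0.03 and −0.09. MiR-30b varied far more than its star strand, from 9.61 to 10.96 in exposed and from 9.82 to 10.96 in control lungs. This spread went with the slide. MiR-30b* minus miR-30b was −3.47 to −3.23 on slide 1 (mice 17, 18, 20 and 23) and −4.71 to −3.91 on slides 2 and 3.

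The let-7 guides repress genes of growth and the cell cycle, and their star strands were close to the level of absent microRNAs. Let-7b*, let-7d* and let-7f* had exposed medians of 5.90, 5.87 and 5.81 and control medians of 5.95, 5.88 and 5.94. Their differences of −0.035, −0.018 and −0.046 were smaller than their standard errors of 0.08, 0.07 and 0.06. Let-7d* and let-7f* are encoded 1809 bp apart on chromosome 13. The partners were bright, with exposed medians of 12.15 for let-7b, 10.94 for let-7d and 12.40 for let-7f. Let-7d differed by −0.17 (adjusted p = 0.223 in limma), let-7b by −0.16 (adjusted p = 0.28 in limma) and let-7f by −0.00078.

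The miR-200 family, which includes miR-141, keeps epithelial cells in their epithelial state by repressing Zeb transcription factors. MiR-200a* and miR-200b* differed by 0.0041 and −0.0062, on standard errors of 0.04, and miR-200a and miR-200b by 0.10 and −0.04. MiR-200b*, present in 3 of 7 exposed and 3 of 6 control lungs, passed the presence rule only through the control lungs. Its values and those of its pair carry that selection. MiR-141* measured 5.83, 5.86 and 5.94 in exposed and 5.76, 5.84 and 5.86 in control lungs. Of the exposed lungs 4 were above every control, within a range of less than 0.2 log2 units, and the difference was 0.04 (95% CI −0.03 to 0.11, adjusted p = 0.538 in limma).

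Among the other star strands with a tested partner, miR-199b* was the brightest. It lay between 9.71 and 10.01 in exposed and between 9.77 and 10.05 in control lungs, with a difference of −0.04 (SE 0.06). MiR-140*, from a hairpin known for its role in cartilage, lay between 8.43 and 8.68 in all lungs, with a difference of −0.03 (SE 0.05). MiR-17*, of the miR-17 to miR-92a cluster known for cell proliferation, differed by −0.0035 (SE 0.04). MiR-22*, miR-29c* and miR-31* differed by −0.06, 0.02 and 0.04, with standard errors of 0.09, 0.05 and 0.04. MiR-29c is known for repressing collagens, and its star was present on all arrays. The partners of these 6 differed by −0.06 (miR-199b), 0.08 (miR-140), −0.01 (miR-17), −0.06 (miR-22), 0.08 (miR-29c) and 0.11 (miR-31), with adjusted p-values in limma from 0.28 to 0.905. The row of miR-199b is read by probes that the array lists for miR-199a-3p too. MiR-181a-1*, whose partner has a row under another name, differed by −0.035 (SE 0.07).

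In 5 cases the star was the strand that was measured and the partner was not in the fit. MiR-674* was present on all 13 arrays and its partner on none. It measured 6.14, 6.24 and 6.33 in exposed and 6.12, 6.34 and 6.43 in control lungs, a difference of −0.07 (SE 0.05). MiR-877* was present on 11 arrays and its partner on 1. Its levels were 5.83, 5.87 and 6.03 in exposed and 5.89, 5.98 and 6.12 in control lungs, and 4 exposed lungs were below every control. MiR-877* had the lowest fitted difference of all star strands, −0.11 (95% CI −0.21 to −0.0031, unadjusted p = 0.0444 and adjusted p = 0.28 in limma), and within the slides it was −0.13, −0.08 and −0.12. MiR-191* and miR-135a* were present on 10 and 7 arrays and their partners on none, and they differed by −0.04 (SE 0.06) and 0.12 (SE 0.08). MiR-483* was present on 8 arrays and its partner on 4, and it differed by −0.06 (SE 0.06). Names of these rows are those of the array, and a star there does not state which strand is the rarer in lung.

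MiR-21, known as a microRNA induced in inflammation and tissue remodelling, was the only partner called higher or lower in exposed lungs, 1 of 66 partners against 4 of 220 microRNAs (1.82%). Its level was 12.83, 13.12 and 13.34 in exposed and 12.27, 12.56 and 12.86 in control lungs. The groups overlapped by 1 exposed lung, since the other 6 were above every control (2 of 220 microRNAs, 0.909%, did not overlap at all). Exposed lungs averaged 13.13 ± 0.21 (SD, n = 7) and control lungs 12.55 ± 0.24 (SD, n = 6), a 1.5-fold difference (log2 0.58, 95% CI 0.33 to 0.84, adjusted p = 0.0177 in limma; exact two-sided permutation p = 0.00233). Within slides 1, 2 and 3 the difference was 0.57, 0.38 and 0.78. The adjusted p rose above 0.05 when any of exposed mice 1, 9 and 13 or control mice 12 and 20 was left out, with a difference between 0.53 and 0.64 and an adjusted p of at most 0.0555 over all 13 such fits. Scaling to the 75th percentile of probes detected on all arrays gave 0.54 (adjusted p = 0.186 in limma), and of all mouse probes 0.90 (adjusted p = 0.0637 in limma).

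MiR-21* was dim. It was present in 5 of 7 exposed and 1 of 6 control lungs, with levels of 5.80, 5.87 and 5.94 against 5.64, 5.78 and 5.85. It passed the presence rule only through the exposed lungs, where it was higher. Its p-values and those of its pair carry that selection. All exposed values were above the control median and 4 were above every control. The difference was 0.10 (95% CI 0.02 to 0.19, unadjusted p = 0.0239 and adjusted p = 0.223 in limma; exact permutation p = 0.00699), of the same sign as that of miR-21 and 0.06, 0.08 and 0.17 within the slides.

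Both strands passed the presence rule in 18 pairs, and the per-array difference of star minus partner was compared between the groups in each. The star and the partner differed in the same direction in 15 of the 18, 5 with both above 0 and 10 with both below, and in the other 3 the star was below 0 and the partner above. Of all 220 microRNAs, 64.5% were below 0, several of the differences in these pairs were near 0, and both strands were read on the same arrays. The count was therefore not read as agreement between the strands. Only miR-21* minus miR-21 was called, 1 of 18 (5.56%), a pair whose star entered the fit only through the exposed lungs. Its exposed minus control difference was −0.48 on the log2 scale (95% CI −0.72 to −0.24, adjusted p = 0.0151 in limma over 18 pairs; exact permutation p = 0.00408), with 5 of 7 exposed lungs below every control and values of −0.51, −0.30 and −0.61 within the slides.

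This difference depended on the treatment of background. When the mean of the negative control spots was subtracted from every array before normalization, miR-21* averaged 2.86 ± 0.39 (SD, n = 7) after exposure and 1.67 ± 0.97 (SD, n = 6) in controls, a difference of 1.18 (adjusted p = 0.155 in limma), while miR-21 still differed by 0.55 (adjusted p = 0.0192 in limma). The miR-21* value of control mouse 12 was at the floor of the subtraction, log2 0. With this subtraction the pair difference turned to 0.63 (95% CI −0.17 to 1.43, adjusted p = 0.66 in limma). With the background-subtracted total gene signal of the scanner software it was 0.44 (adjusted p = 0.889 in limma). Under a normexp background correction with an offset of 50, the pair difference did not turn and was −0.49 (adjusted p = 0.0104 in limma). In that setting miR-21* differed by 0.09 and miR-21 by 0.58. The direction of the miR-21 strand difference therefore could not be read from these arrays.

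MiR-141* minus miR-141 and miR-10a* minus miR-10a followed miR-21 in size. MiR-141 measured 9.56, 9.99 and 10.25 in exposed and 9.16, 9.56 and 9.84 in control lungs, with 5 exposed lungs above every control and a difference of 0.38 (adjusted p = 0.208 in limma). MiR-10a, encoded among the Hoxb genes, measured 9.24, 9.48 and 9.73 against 9.5, 9.61 and 10.00, with 4 exposed lungs below every control and a difference of −0.24 (adjusted p = 0.231 in limma). MiR-10a* itself differed by −0.04 (SE 0.05). It was present in 3 of 7 exposed and 4 of 6 control lungs. MiR-10a* thus passed the presence rule only through the control lungs, where its mean was higher (5.86 against 5.82). Its p-values and those of its pair carry that selection. The pair differences were −0.34 for miR-141 (95% CI −0.61 to −0.06, adjusted p = 0.18 in limma) and 0.20 for miR-10a (95% CI 0.02 to 0.37, adjusted p = 0.183 in limma). With the negative control level subtracted they were 0.0059 (95% CI −0.32 to 0.33) and 0.0010 (95% CI −0.92 to 0.93), and both strands of a pair then had nearly the same difference, 0.39 and 0.39 for miR-141* and miR-141 and −0.27 and −0.27 for miR-10a* and miR-10a.

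**Figure D3:**
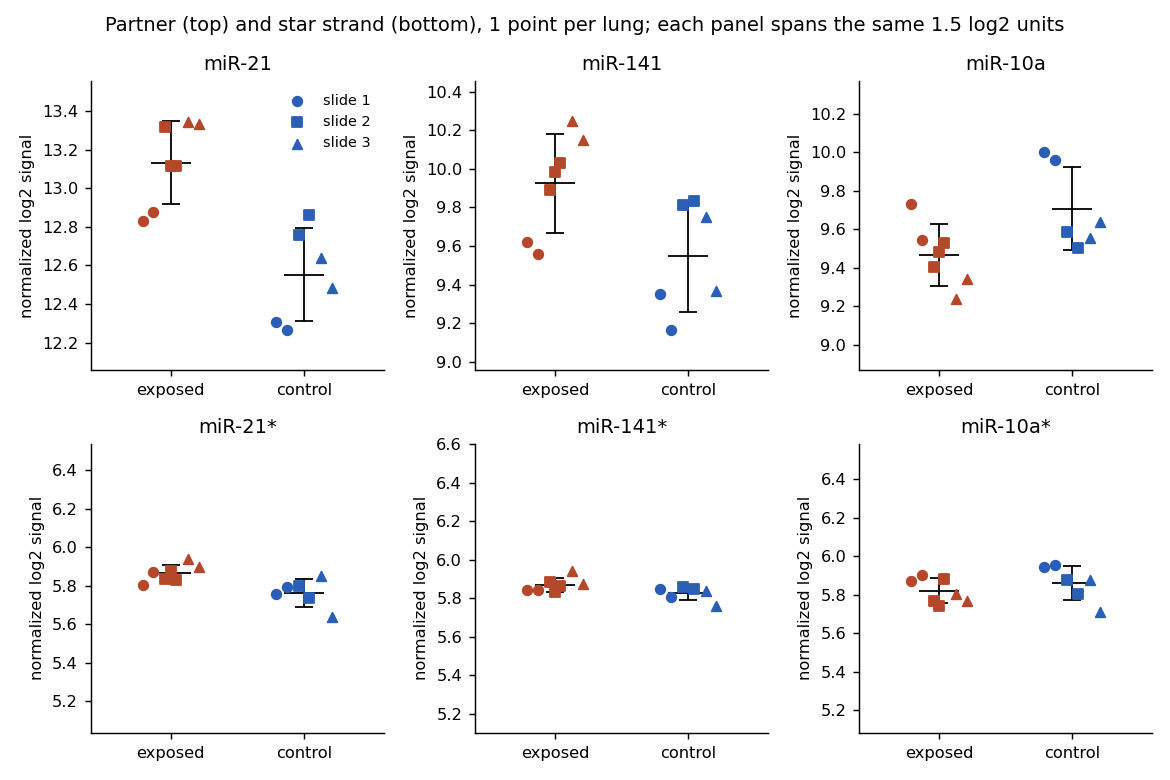
Normalized log2 signal of miR-21, miR-141 and miR-10a (top) and of their star strands (bottom), 1 point per lung with colour for the group and marker shape for the slide; the bars are mean ± SD, and each panel spans the same 1.5 log2 units. The partners differ by 0.58, 0.38 and −0.24, and the star strands, near the level of absent microRNAs at 5.58, by 0.10, 0.04 and −0.04.

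MiR-7a*, encoded within Hnrnpk, was in a pair called in only 2 of 27 alternatives, both with background subtracted. With background kept it measured 5.86, 5.91 and 5.95 in exposed and 5.89, 5.99 and 6.04 in control lungs (difference −0.07, adjusted p = 0.28 in limma; exact permutation p = 0.014), and miR-7a differed by −0.01 (SE 0.05). The pair difference was −0.06 (95% CI −0.15 to 0.03). After subtraction of the negative control level miR-7a* differed by −0.41 (adjusted p = 0.169 in limma) and miR-7a by −0.02, and the pair was called at −0.40 (95% CI −0.58 to −0.21, adjusted p = 0.00922 in limma). With the total gene signal of the scanner software the pair was called at −0.44 (adjusted p = 0.0248 in limma). Over all 27 alternatives the pair difference ran from −0.44 to −0.04. MiR-7a* was dim too, present on 10 of 13 arrays, and whether its pair was called depended on the treatment of background.

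In the 8 pairs with a star present on all 13 arrays, none was called. Their differences ran from −0.11 for miR-140* to 0.02 for miR-199b*, and the lowest adjusted p in limma was 0.358. The remaining 6 pairs not yet described had differences from −0.09 (miR-200a*) to 0.15 (let-7d*), all with intervals that held 0.

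**Figure D4:**
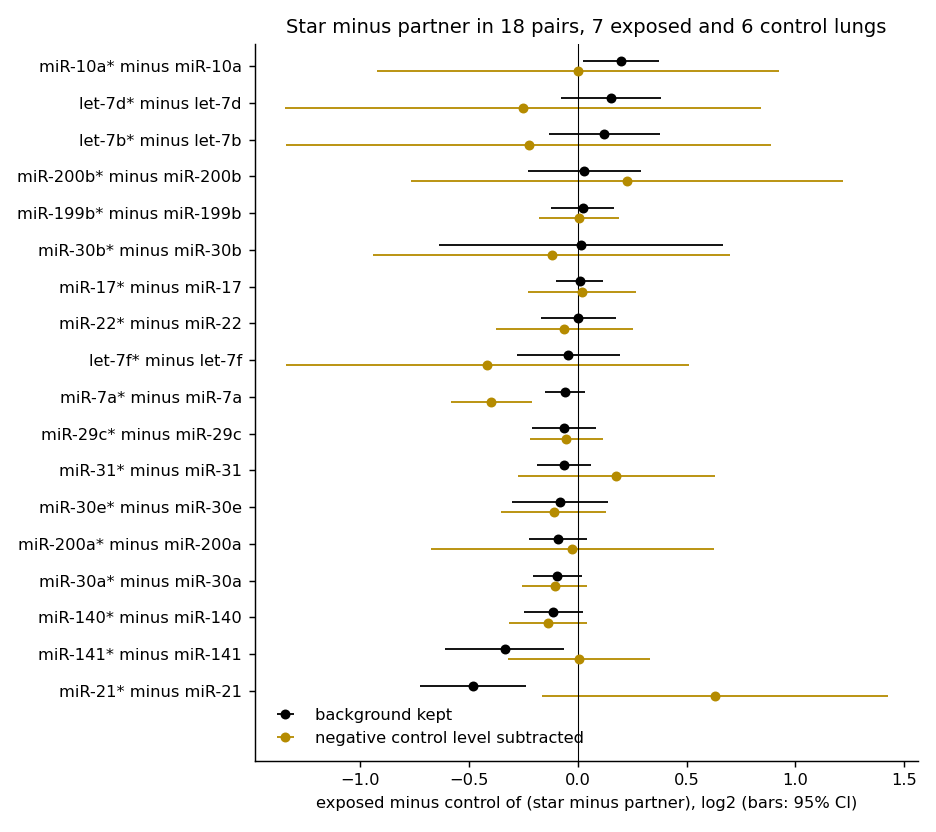
Exposed minus control difference of star minus partner in log2 units (horizontal axis) for 18 pairs, with 95% confidence intervals as bars, with background kept (black) and with the negative control level subtracted (gold). MiR-21* moves from −0.48 to 0.63, miR-141* and miR-10a* move to about 0, and miR-7a* moves from −0.06 to −0.40.

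A fit with slide as a fixed block called more partners but no star strand. In that fit 31 of 220 microRNAs were called, 9 of them partners and 0 star strands. The partners higher in exposed lungs were miR-21 (adjusted p = 0.0001 in limma), miR-141 (0.36, adjusted p = 0.0172), miR-146b, a regulator of inflammatory signalling (0.31, adjusted p = 0.0045), and miR-33, known for lipid metabolism (0.26, adjusted p = 0.0488). The partners lower were miR-10a (−0.23), let-7d (−0.15), miR-150 of lymphocytes (−0.28), miR-92a (−0.28) and miR-99b (−0.19), with adjusted p-values in limma from 0.0172 to 0.0488. The pairs called were miR-21 (−0.46, adjusted p = 2.46e-05), miR-141 (−0.32, adjusted p = 0.00287) and miR-10a (0.19, adjusted p = 0.0421 in limma), with background kept in all of them. The star of miR-21 had entered the fit only through the exposed lungs, and that of miR-10a only through the control lungs.

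Of the 48 partners in the fit whose star was not, 8 had an unadjusted p under 0.05 without the block, a share near the 15.9% of all 220 microRNAs, and none was called. The lowest adjusted p among these was that of miR-146b, with a difference of 0.33 (adjusted p = 0.0988 in limma). Their star strands were too seldom present to be read.

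The arrays and tissue were checked with a list of 15 marker microRNAs. Endothelial miR-126-3p was bright in both groups (14.29 exposed, 14.25 control), heart miR-499 and neuronal miR-124 were present on no array, and heart miR-208a and miR-208b were present on 2 and 3. Of the 11 markers in the fit, 1 was called, miR-449a of ciliated epithelium, with 8.88 in exposed and 7.33 in control lungs (adjusted p = 0.000245 in limma). The red cell markers miR-451 and miR-144 measured 12.97 and 10.35 in exposed and 13.09 and 9.76 in control lungs, myeloid miR-223 9.16 and 9.60, and liver miR-122 6.83 and 7.15, with adjusted p-values in limma from 0.154 to 0.71. The part of these cell types in the values of miR-21 and the other strands was not tested.

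Messenger RNA of 28 genes that make, load, edit or trim microRNAs was read on 13 lung arrays of 2 colours, 7 exposed and 6 control. These arrays lay on 4 slides, and slide 4 held only exposed arrays (mice 20 and 23), so group and slide could not be fully told apart. Each gene was read by 1 probe, the one of highest mean signal, and other probes of the same gene were not read. None of the 28 genes was called (limma, Benjamini-Hochberg), where 15 of 41172 probes (0.0364%) were. The lowest adjusted p was 0.606, 2 genes had an unadjusted p under 0.05 against 7.84% of probes, and 9 differences were above 0 and 19 below, where 53.2% of all probes were below. The lowest were those of Ago4 (−0.63, 95% CI −1.49 to 0.24), Dicer1 (−0.35, 95% CI −0.70 to 0.01) and Ago1 (−0.33, 95% CI −0.81 to 0.16). Argonautes bind the guide strand, and Dicer cuts the hairpin to the duplex. The highest differences were those of Mov10, an RNA helicase bound to Argonautes (0.08), Gemin4 (0.17) and Xpo5, which encodes Exportin-5 (0.18, 95% CI −0.02 to 0.38). The low values lay in 3 exposed arrays. Ago4 measured 1.03, 0.86 and 1.11 there against 2.66 to 2.91 in the other 4 exposed arrays, as log2 ratios to the reference RNA, and these 3 arrays correlated at 0.883 to 0.914 with the authors' processed table where all others reached 0.976 to 0.996. Without them the differences of Ago4, Dicer1 and Ago1 were 0.14, −0.06 and 0.09, those of Mov10, Gemin4 and Xpo5 were 0.10, −0.03 and 0.04, 12 genes were above 0 and 16 below, and again none was called.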

How the data were processed

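MicroRNA was measured on 13 one-colour Agilent arrays (Cy3), read by the authors with Feature Extraction 9.5.1.1, and messenger RNA on 13 two-colour arrays of lung against a universal reference. The deposited files hold spot intensity values, and the authors' value tables, used as an alternative, hold log2 values. MicroRNA intensity (mean signal, background kept as in the study's methods) was quantile normalized, log2 transformed, and reduced to the median over spots and probes, without outlier-flagged spots. Presence was a signal above the mean of 288 negative control spots by 3 SD, both trimmed by 0.05 at each end. The trim was chosen here. MicroRNAs present in 50% or more of the lungs of one group were compared with limma 3.58.1 in R 4.3.3 (lmFit, eBayes, Benjamini-Hochberg, threshold 0.05), and star minus partner likewise over 18 pairs. Messenger RNA was background corrected (normexp, offset 50), loess normalized and tested over 41172 probes, reading ratios as sample (Cy5) over reference (Cy3) without dye swap. Exact permutation tests were two-sided, and their smallest possible p was 0.00117.

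Every star strand in the fit and its tested partner was named. Of the genes that process microRNA, the 3 highest and 3 lowest were. The members and lists were chosen with earlier results of these data known. Star names were matched to RefSeq arms by background knowledge. No array had saturated spots on the microRNA platform, and precision was limited by the number of arrays. In data simulated for the lung microRNA comparison, with 20 of 220 changed by 1 on the log2 scale, 100% were recovered with 3 false calls, and 87% of 200 changed probes were recovered with 4 false calls for messenger RNA. The fitted differences of star strands were smaller, −0.11 to 0.19, and recovery at that size was not tested. In the messenger RNA values, 15 per-sample columns were not used here. Arrays of the 2 assays were not paired, because their mouse numbers conflict.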

Additional observations from a re-analysis of the deposited data

Results flagged for a closer look

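Single lungs stood apart from the rest of their group in 3 cases. Let-7d* was 6.26 in exposed mouse 3, the array with most star strands present, where the next exposed value was 5.94. MiR-877* was 6.03 in exposed mouse 7, with the next exposed value at 5.91, so that the other 6 exposed lungs were farther from the controls than this one. Ago4 mRNA was 1.80 in control mouse 24, as a log2 ratio to the reference, where the next lowest control was 2.67. Of the 126 groups of microRNA values looked at, 2 were marked in this way, where a rule set at the 95% critical value would by its construction mark about 1 in 20 by chance.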

How the results depend on the processing

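Star strands had 0 calls under all 29 alternatives and processing genes under all 18. Called partners numbered 1 as reported. They numbered 0 with either 75th percentile scaling, with every mouse microRNA tested and with the F test of single microRNAs, 2 with total gene signal and with probes in place of microRNAs, and 9, 7 and 6 with slide as a fixed block, as a random block and with the labelled hybridization as the block. Leaving out 1 lung gave 0 (exposed mice 1, 9 and 13, control mice 12 and 20) to 2 (exposed mice 17 and 18, control mouse 10). Of all 220 microRNAs 4 were called as reported, and 31, 22 and 16 with these blocks. Called pairs numbered 1 as reported, 0 with every mouse microRNA tested, 3, 3 and 2 with the blocks, and 1 without each lung. With presence required on all arrays of either group they numbered 0, but that rule leaves miR-21* out of the fit. The pair of miR-21 reversed to 0.44 with total gene signal and to 0.63 with the negative control level subtracted, an alternative chosen after seeing the data, as were the values within slides and the messenger RNA fit without 3 arrays. It was called in 24 of 27 alternatives, and miR-21 itself in 19 of 28 (0.53 to 0.90). Dim star strands limit the depth of any pair comparison, since 14 of 27 lay below 6 where absent microRNAs had 5.58. The 27 star strands in the fit became 30 with a trimmed share of 0.10 and 36 by the calls of the scanner software. All messenger RNA probes gave 15 calls as reported, 85 without background correction, 0 with median centering, 6 with slide as a block, 71 with the authors' table and 30 without 3 exposed arrays. No paired analysis was possible because the exposed and control lungs on the microRNA arrays share no mouse number.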
